A study of Mus musculus with 4 samples.

Results

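The levels of 9 long non-coding RNA genes were followed across the libraries: Malat1, Neat1, Meg3, Rian, Mirg, Miat, Kcnq1ot1, Snhg11 and Pvt1. They were chosen by symbol, and all 9 were present in each of the 4 deposited count tables, which held 49993 genes each. Bulk RNA-seq was done on CD11b+ microglia, the brain's resident immune cells, sorted from the brain at 10 months of age. Every mouse in both groups was APP/PS1+, that is, it carried mutant amyloid precursor protein and presenilin transgenes that lead to amyloid plaques. The AD mice were asrij+/+ (n = 2 libraries) and the AD/KO mice were asrij-/- (n = 2 libraries), where asrij is the gene Ociad1. The labels do not give the transgene promoter, the sex of the mice, the litter, or whether animals were pooled, and they do not say that the libraries of a group came from separate mice, so that p-values measure only the spread between these libraries. Library totals ran from 13102622 to 19810076 counts. Levels are given as CPM (counts scaled to library size, with edgeR's TMM factors), and in the order AD replicate 1, AD replicate 2, AD/KO replicate 1, AD/KO replicate 2 unless stated.

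Ociad1, the gene targeted for deletion, was at 50.2, 63.4, 38.9 and 32.1 CPM (691, 1032, 746 and 592 reads). Its log2 fold change of AD/KO against AD was −0.68 (SE 0.29, edgeR adjusted p = 0.680). The groups did not overlap, with AD/KO the lower, as was the case for 21.7% of genes tested. The AD/KO libraries thus had less of Ociad1 but were not devoid of it. AD and AD/KO below therefore stand for the libraries as labelled, and each direction is a difference between labels. The microglial label was checked against 10 homeostatic microglia markers, which summed to 17663, 11804, 18101 and 5155 CPM, with none at 0. Markers of other brain cells were also present. The 10 neuron markers summed to 478, 1479, 1244 and 3750 CPM, and the 7 astrocyte markers to 1831, 4299, 4461 and 11436 CPM. The 6 oligodendrocyte markers summed to 1616, 2570, 3882 and 8491 CPM. Of these 6, 4 had a positive log2 fold change. The 2 with a negative one, Mog and Mag, were highest in AD replicate 2. The 6 neutrophil markers summed to 306, 4367, 445 and 496 CPM and were thus high in AD replicate 2, which was also the library with most reads of Xist (6, 1391, 15 and 3 reads). In bulk RNA, fewer cells of a type and less RNA per cell cannot be told apart.

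Long non-coding RNAs are transcripts without a long open reading frame, many of which stay in the nucleus. Malat1 gathers in nuclear speckles, where splicing factors are stored, and Neat1 forms the core of paraspeckles, nuclear bodies that hold RNA-binding proteins. Meg3, Rian and Mirg lie one after another in the imprinted Dlk1-Dio3 domain, are expressed from the maternal chromosome, and host small nucleolar RNAs (Rian) and microRNAs (Mirg). They are known in the brain mainly from neurons. Miat (also called Gomafu) is a nuclear RNA of neurons that carries repeats bound by splicing factors. Kcnq1ot1 is the paternally expressed antisense RNA that silences the imprinted Kcnq1 domain, Snhg11 is a host gene of small nucleolar RNAs, and Pvt1 lies next to Myc.

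In RefSeq (GRCm38.p6, coordinates counted from 1) the 9 genes lie at chr19:5795690-5802672 (Malat1, minus strand), chr19:5824708-5845480 (Neat1, minus), chr12:109540996-109571729 (Meg3, plus), chr12:109603945-109661716 (Rian, plus), chr12:109734981-109749458 (Mirg, plus), chr5:112213228-112228948 (Miat, minus), chr7:143213111-143296547 (Kcnq1ot1, minus), chr2:158375713-158386474 (Snhg11, plus) and chr15:62037986-62260215 (Pvt1, plus). Malat1, Neat1 and Kcnq1ot1 each form 1 exon block in GENCODE M21, whereas Rian has 19 and Pvt1 has 21. Snhg11 is a long non-coding RNA in RefSeq and protein-coding in GENCODE. Some exons are shared with antisense genes: 24.3% of the Miat exon bases overlap Gm26953, 6.79% of those of Meg3 overlap Gm26906, and Kcnq1ot1 lies inside Kcnq1 on the opposite strand. The kit marks strand, but the strand setting of the counting is not given in the sources used here, so that reads of these pairs may not be told apart.

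Sequences are shown for 4 features that set the members apart from one another. These are the start of the Meg3 domain, microRNAs toward its far end, the repeats of Miat and the 3′ part of Malat1. The Meg3 promoter window (RefSeq, GRCm38.p6, chr12:109540746-109541045, plus strand, 250 bases before to 50 after the start) is shown because the domain's long non-coding RNAs follow it. Its capitals mark matches to the cAMP response element TGACGTCA and to the TATA box core TATAAA, searched on both strands (the second match overlaps its own reverse complement).
Meg3 promoter: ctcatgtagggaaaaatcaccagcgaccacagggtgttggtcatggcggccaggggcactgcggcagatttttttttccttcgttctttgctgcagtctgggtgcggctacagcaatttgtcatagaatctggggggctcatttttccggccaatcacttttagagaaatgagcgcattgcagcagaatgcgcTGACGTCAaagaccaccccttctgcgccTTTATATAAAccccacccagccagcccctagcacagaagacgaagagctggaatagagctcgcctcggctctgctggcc
Of 32851 promoter windows, 1.79% held TGACGTCA and 13.6% held TATAAA. RefSeq windows were found for 7 of the 9 genes (8 windows, 2 of them of Meg3; Neat1 and Pvt1 had none in the table), and the first Meg3 window was the only one of the 8 with either motif. CCAAT, present in 37.4% of all windows, matched in those of Meg3, Mirg and Kcnq1ot1, and the GC box GGGCGG, present in 35.7%, matched in that of Miat.

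From the start of Meg3 to the end of Mirg, over 208 kb, RefSeq places 60 microRNA genes with 112 mature arms. The arms carried 102 different seeds (bases 2 to 8, which pair with targets), and 9 seeds were each shared by a pair of arms that differ in sequence. The arm miR-3070-5p is identical in Mir3070a and Mir3070b and was not counted among these pairs. Both arms of the 4 microRNA genes with the highest mean level in these libraries are shown, from RefSeq, with the seed in capitals.
miR-377-5p: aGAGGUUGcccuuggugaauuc
miR-377-3p: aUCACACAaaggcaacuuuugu
miR-134-5p: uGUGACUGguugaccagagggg
miR-134-3p: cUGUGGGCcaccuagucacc
miR-666-5p: aGCGGGCAcagcugugagagcc
miR-666-3p: gGCUGCAGcgugaucgccugcu
miR-409-5p: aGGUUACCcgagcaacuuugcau
miR-409-3p: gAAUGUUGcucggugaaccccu
None of these 8 arms shared its seed with another arm of the domain. MicroRNA rows in these libraries count reads of long-RNA preparations over the hairpin gene and are no measure of the mature microRNA.

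Miat carries the repeat TACTAAC, which matches the branch point that Sf1 binds. The transcript Miat-205 (GENCODE M21, 9163 nt) holds 6 copies in 2 clusters, shown with the repeat in capitals (transcript strand, nt 4932 to 5081 and nt 5580 to 5638).
Miat first cluster: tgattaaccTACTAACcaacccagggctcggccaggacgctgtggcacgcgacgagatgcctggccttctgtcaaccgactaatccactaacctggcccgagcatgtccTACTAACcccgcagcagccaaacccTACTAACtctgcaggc
Miat second cluster: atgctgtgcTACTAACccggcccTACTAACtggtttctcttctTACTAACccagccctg
That is 0.655 copies per kb. Of 169 long non-coding genes with a longest transcript of at least 5000 nt, 18.3% held at least 1 copy and 1 gene, Miat itself, reached that density. Among the other members Kcnq1ot1 held 4 copies in 93092 nt and Neat1 held 1 in 20771 nt.

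Malat1 ends in a structure that stabilises it without a poly(A) tail, in which U-rich stretches wrap an A-rich tract, followed by a tRNA-like element that is cut off. The sequence from nt 6641 to 6754 of Malat1-201 (6983 nt, GENCODE M21) is shown. It contains a single U-rich stretch, the A-rich tract and part of the tRNA-like element. Capitals mark a U-rich run (TTTTGCTTTTT), a run of 12 A, and GGTTCAA of the tRNA-like element.
Malat1 3′ part: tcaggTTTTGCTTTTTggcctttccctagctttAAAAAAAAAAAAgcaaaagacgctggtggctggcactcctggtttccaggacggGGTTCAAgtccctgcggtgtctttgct

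Malat1 was by far the most abundant of the 9. Its level was 17838, 15101, 15084 and 10419 CPM, and it took 1.88%, 1.54%, 1.5% and 0.969% of all counts. It ranked 1 among all genes in AD replicate 1 and 3 in the other libraries. The lowest level was in AD/KO replicate 2 and the highest in AD replicate 1, while AD replicate 2 and AD/KO replicate 1 were nearly equal. Per kilobase of annotated exon, Malat1 averaged 2092 CPM per kb over the 4 libraries, followed by Snhg11 (122), Meg3 (95.6), Neat1 (24.2), Miat (19.5), Rian (6.41), Pvt1 (5.15), Kcnq1ot1 (3.92) and Mirg (1.94). Exon lengths were taken from GENCODE M21, while the annotation used in the counting is not given. For Kcnq1ot1 that length (93092 bases) exceeds the whole RefSeq span (83437), so that places low in this order may depend on the annotation. Malat1 was first in all 4 libraries, and its lowest level per kb (1492) exceeded the highest of any other member (256, Snhg11). Each of the other neighbours in this order overlapped over the libraries. Neat1 was the second most abundant per kb in AD replicate 1 and lay below Miat in AD/KO replicate 2, where Pvt1 was last.

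**Figure D1:**
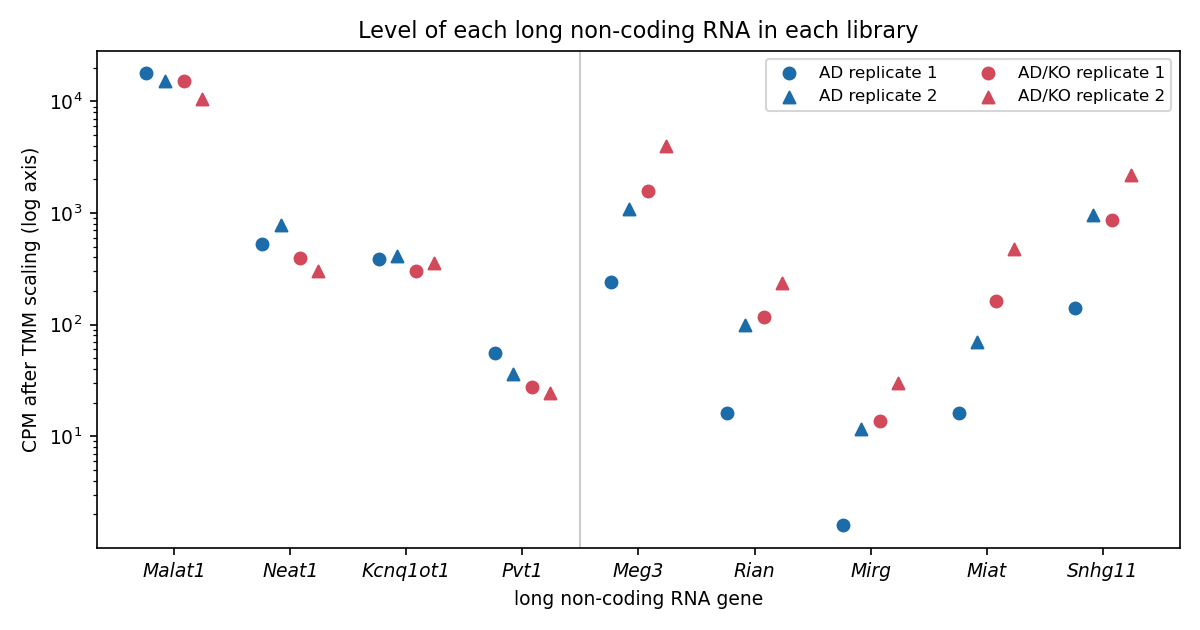
Level of each long non-coding RNA (CPM after TMM scaling, log axis) in the 4 libraries, with 1 point per library, AD in blue and AD/KO in red, replicate 1 as circles and replicate 2 as triangles. Malat1, Neat1, Kcnq1ot1 and Pvt1 stay within 2.59-fold over the libraries, whereas Meg3, Rian, Mirg, Miat and Snhg11 span from 14.3-fold to 29.6-fold, lowest in AD replicate 1 and highest in AD/KO replicate 2.

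The 9 genes fell into a steady and a variable set. Between the lowest and the highest library, Kcnq1ot1 differed 1.34-fold, Malat1 1.71-fold, Pvt1 2.29-fold and Neat1 2.59-fold. Rian differed 14.3-fold, Snhg11 15.4-fold, Meg3 16.5-fold, Mirg 18.7-fold and Miat 29.6-fold. Over the 21439 genes tested the median range was 1.10 on the log2 scale. The range of Kcnq1ot1 (0.42) was larger than that of 13.9% of genes, and that of Miat (4.85) was larger than that of 99.9%. All 5 variable genes were lowest in AD replicate 1 and highest in AD/KO replicate 2, an order found in 31.1% of genes tested. Malat1 and Pvt1 had the reverse order, found in 30.7%.

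Whether the members differed between AD and AD/KO was tested with edgeR's quasi-likelihood test over all 21439 genes, with Benjamini-Hochberg adjustment. None of the 9 passed the threshold of 0.05, where the background was 0% of all genes tested (smallest adjusted p 0.680). At an unadjusted p under 0.05 edgeR gave 1072 genes, and DESeq2 called 90 genes after adjustment. Miat was the only member with an unadjusted p under 0.05 (0.0260 in edgeR), in the direction that 2.7% of genes had (2.3% in the other direction). Both AD/KO libraries lay above both AD libraries for 4 members (Meg3, Rian, Mirg and Miat), against a background of 20.3% of genes, and below both for 4 (Malat1, Neat1, Kcnq1ot1 and Pvt1), against 21.7%. Snhg11 overlapped. After scaling to the homeostatic microglia markers, which shifted the median difference over all genes by 0.873 (log2), Miat alone of the 9 had groups that did not overlap, against backgrounds of 6.8% (higher) and 6.45% (lower). Under that scaling 81.7% of genes had a positive log2 fold change (47.2% under TMM), and those of Malat1 (0.41), Kcnq1ot1 (0.70) and Pvt1 (0.099) were positive too. Relative to the median of all genes under the same scaling (0.825), these 3 lay at −0.41, −0.12 and −0.73, and Neat1 lay at −0.98, on the same side as under TMM.

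DESeq2 called Miat (adjusted p = 0.0219), where it called 0.207% of genes as higher in AD/KO and 0.258% as lower. Leaving out AD replicate 2, the library with the neutrophil markers, left AD replicate 1 as the only AD library, assumed to vary like the AD/KO libraries. In that fit edgeR called Rian (log2 fold change 3.49, adjusted p = 0.0310), Mirg (3.82, 0.0218) and Miat (4.37, 0.0234), all positive, where it called 2.15% of 22970 genes as higher in AD/KO and 0.135% as lower. The log2 fold changes of Meg3 (3.57) and Snhg11 (3.49) were larger in it too, without a call. Leaving out AD replicate 1 moved the values the other way, to 1.33 for Meg3, 0.81 for Rian, 0.89 for Mirg, 2.19 for Miat and 0.66 for Snhg11. Without AD/KO replicate 2 they were 1.24 for Meg3, 1.04 for Rian, 1.06 for Mirg, 1.95 for Miat and 0.68 for Snhg11. No member was called in either of these fits. Under the microglia scaling the 5 values ran from 2.53 (Snhg11) to 4.03 (Miat), none called.

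**Figure D2:**
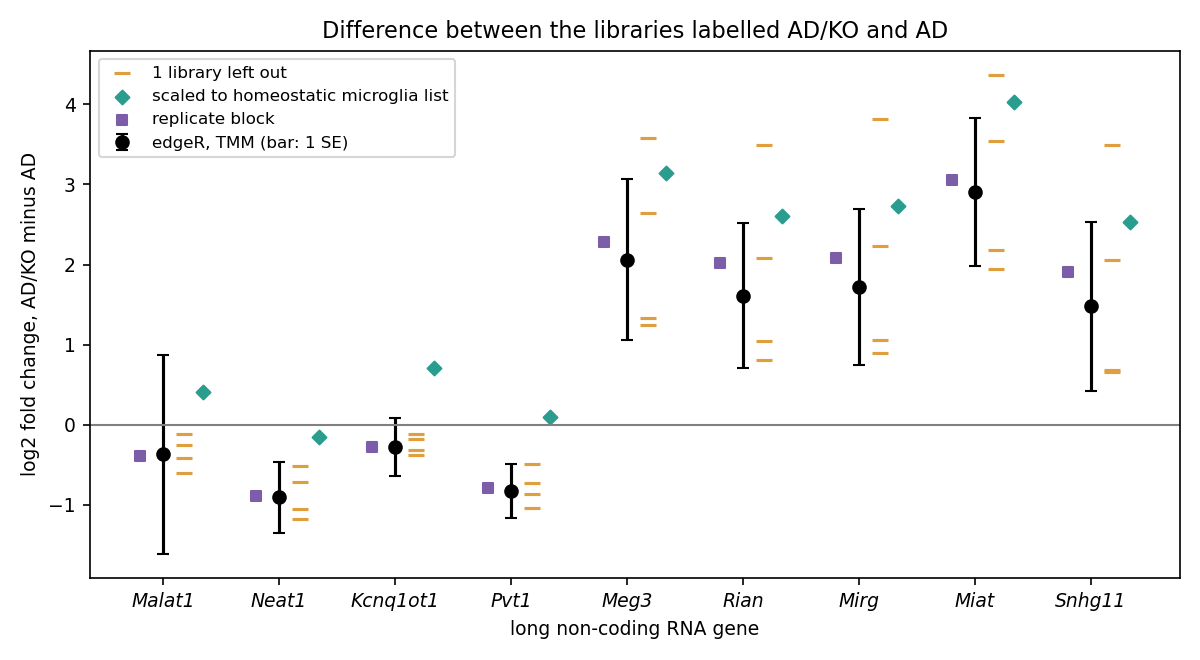
Fitted log2 fold change of AD/KO against AD for each long non-coding RNA (black points, bars 1 SE from edgeR), with fits that leave out 1 library (orange ticks), fits with the replicate number as a block (purple squares) and fits scaled to the homeostatic microglia markers (green diamonds). Miat has the largest difference at 2.91 ± 0.92, and Malat1, Kcnq1ot1 and Pvt1 lie below 0 except under the microglia scaling.

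The imprinted Dlk1-Dio3 RNAs were the first of the variable genes. Meg3, which heads the domain, was at 244, 1096, 1570 and 4009 CPM and moved from rank 610 among all genes in AD replicate 1 to rank 13 in AD/KO replicate 2. Its mean was 670 ± 603 CPM in AD and 2790 ± 1724 CPM in AD/KO (SD, n = 2 each), with a log2 fold change of 2.06 (SE 1.0, edgeR adjusted p = 0.680). The groups did not overlap, but AD replicate 2 and AD/KO replicate 1 lay closer to each other than either did to the other library of its group. Rian, the host of the domain's C/D box small nucleolar RNAs, was at 16.3, 98.9, 118 and 234 CPM, with a log2 fold change of 1.61 (SE 0.91, edgeR adjusted p = 0.680). Mirg, the host of its distal microRNAs, was at 1.60, 11.6, 13.7 and 29.8 CPM, with a log2 fold change of 1.72 (SE 0.98, edgeR adjusted p = 0.680). Mirg rested on 22 reads in AD replicate 1 and on 550 in AD/KO replicate 2.

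The proportions of the 3 RNAs of the domain varied less than their levels. Mirg had 9.78%, 11.7%, 11.6% and 12.7% of the reads of Rian. Rian had 6.71%, 9.02%, 7.51% and 5.84% of the reads of Meg3, a 1.54-fold range, and Mirg to Meg3 had a 1.61-fold range. The same held for Snhg11, which lies on another chromosome, with a 1.60-fold range against Meg3. Rian and Mirg had the most alike profiles of any pair of members, with a root-mean-square distance of 0.043 in centred log2 CPM over the 4 libraries. Mirg and Rian were closer to Snhg11 (0.133 and 0.150) than to Meg3 (0.193 and 0.228), so that likeness was not particular to the domain. These proportions are a description of 4 libraries and were not tested.

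Of the 86 rows from Meg3 to Mirg, 23 had enough reads to be tested, 41 had fewer and 22 were at 0 in all libraries. The 23 were the 3 members, Rtl1, 18 microRNA genes and 1 small nucleolar RNA gene, and none was called by edgeR. All 23 had a positive log2 fold change, but for 18 of them at most 1 AD library reached the count that the filter asks for, so that the filter favoured this sign and it supports nothing. Among the 41 rows with too few reads, the mean CPM was higher in AD/KO for 34 and lower for 7, the latter including Mir412 (1, 11, 8 and 3 reads) and Mir485 (2, 9, 5 and 7), named after their values were seen. Mir377 had 5, 28, 37 and 142 reads, Mir134 had 4, 27, 31 and 100, Mir409 had 4, 24, 31 and 72, and Mir666 had 2, 9, 35 and 90. Like Meg3, Rian and Mirg, these 4 rows had fewest reads in AD replicate 1 and most in AD/KO replicate 2, at far lower counts. The 60 microRNA rows together had 58, 380, 458 and 1279 reads, and of the 19 small nucleolar RNA rows only AF357359 had enough reads to be tested. Inside the span of Rtl1, which runs on the opposite strand, all 15 microRNA rows were listed at 0 in every library, while 41 of the 45 outside it had at least 1 read. How the counting assigned reads that fall on more than 1 gene is not given in the sources used here, and its part in these zeros was not tested.

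**Figure D3:**
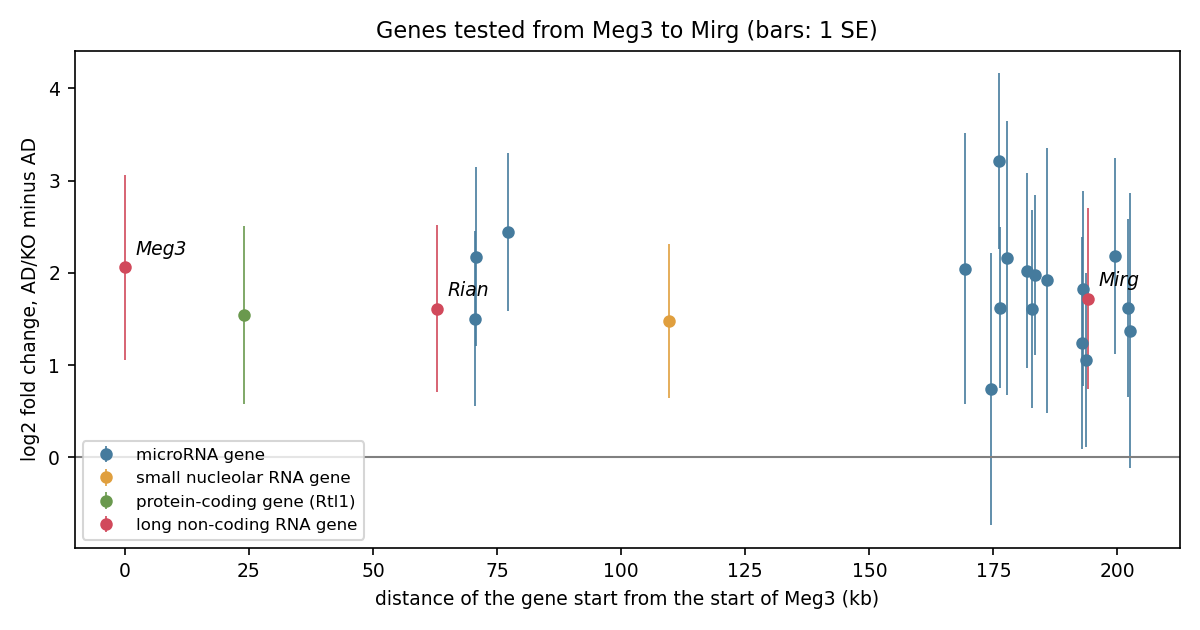
Fitted log2 fold change of AD/KO against AD (bars 1 SE from edgeR) for the 23 genes tested between Meg3 and Mirg, against the distance of each gene start from the start of Meg3 in kb. All 23 points lie above 0 and none was called, and 18 of these rows reached the count filter in at most 1 AD library.

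The other genes in and around the domain did not all lie on one side. Of the 7 listed genes, 6 of them protein-coding, 5 were tested, 3 with a positive and 2 with a negative difference (median log2 fold change 1.08, 0 called). Rtl1, a retrotransposon-derived gene expressed from the paternal chromosome opposite to the maternal RNAs, was at 27.4, 155, 136 and 397 CPM (log2 fold change 1.54, SE 0.97). Its span overlaps those of Meg3 and Rian on the opposite strand. As the strand setting of the counting is not given, reads of the maternal RNAs may be among those counted for Rtl1. Begain, which encodes a synaptic protein, was at 18.2, 39.7, 56.4 and 143 CPM (1.78, SE 0.63). The transcription factor gene Yy1, outside the imprinted genes, was at 109, 96.6, 104 and 88.1 CPM (−0.09, SE 0.29), and Wdr25 was at 11.7, 6.64, 8.29 and 8.95 CPM (−0.09, SE 0.44). Rtl1 and Begain shared the order of the variable RNAs in their lowest and highest library, and Yy1 and Wdr25 did not.

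Miat had the widest span of the 9. It was at 16.1, 69.4, 164 and 477 CPM and moved from rank 8748 to rank 216 between AD replicate 1 and AD/KO replicate 2. Its mean was 42.8 ± 37.7 CPM in AD and 321 ± 222 CPM in AD/KO (SD, n = 2 each), 7.50-fold apart, with a log2 fold change of 2.91 (SE 0.92, edgeR adjusted p = 0.680). Both AD/KO libraries lay above both AD libraries. Relative to Snhg11, Miat had 11.4%, 7.26%, 18.8% and 21.9% of the reads, so that its share was higher in both AD/KO libraries than in both AD libraries. How many of all genes separate after division by Snhg11, whose own groups overlapped, was not computed. This separation is thus a description only. Of the splicing factors named with Miat, Celf3, which is expressed in neurons, was at 46.5, 80.1, 91.4 and 227 CPM (log2 fold change 1.33, SE 0.56). Qk, an RNA-binding protein of glia, was at 1190.0, 1053, 1052 and 1027 CPM, Sf1, which binds the branch point sequence, at 214, 201, 209 and 199 CPM, and Srsf1 at 136, 157, 139 and 170 CPM. None of the 4 was called (2 positive, 2 negative, median log2 fold change 0.03).

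Snhg11 was at 141, 955, 871 and 2183 CPM, with means of 548 ± 576 CPM in AD and 1527 ± 928 CPM in AD/KO (SD, n = 2 each). Its log2 fold change was 1.48 (SE 1.06, edgeR adjusted p = 0.682), and AD replicate 2 lay above AD/KO replicate 1, so that the groups overlapped. The 2 small nucleolar RNA genes inside it had 4, 41, 164 and 224 reads together. Those of Gm25129 were 3, 35, 143 and 184 (log2 fold change 2.85, SE 1.02) and those of LOC115489592 were 1, 6, 21 and 40 (2.81, SE 0.96). Both AD/KO libraries lay above both AD libraries for these hosted RNAs and not for the host, against a background of 20.3% of genes. Neither hosted RNA was called (edgeR adjusted p = 0.680 each). LOC115489592 reached the count that the filter asks for in neither AD library, and Gm25129 only in AD replicate 2. The filter thus favoured higher values in AD/KO, so that this contrast with the host supports nothing. The test of a host against its hosted RNA was not run.

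Among the steady genes, Malat1 averaged 16469 ± 1935 CPM in AD and 12752 ± 3299 CPM in AD/KO (SD, n = 2 each). Its log2 fold change was −0.37 under TMM scaling and 0.41 under the microglia scaling. The SE was 1.24 in the first, so that ±2 SE ran from −2.86 to 2.12 (edgeR adjusted p = 0.910). This SE was larger than the whole range of Malat1 over the libraries (0.776, log2), so that it does not measure the spread of Malat1 alone. With DESeq2 as the test the SE was 0.50. Of 16 nuclear speckle protein genes, 5 had a positive and 11 a negative difference under TMM scaling, with a median log2 fold change of −0.30 and none called, while all 16 were positive under the microglia scaling, as were 81.7% of all genes. Srrm2, a scaffold protein of speckles, was at 1504, 1832, 1824 and 2804 CPM. Son, the other scaffold, was at 938, 896, 852 and 692 CPM, with Sf3b1 at 430, 352, 334 and 205 CPM and Srsf5 at 348, 304, 310 and 205 CPM. Srrm2 was thus highest in AD/KO replicate 2, where the other 3 were lowest.

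Neat1 was at 525, 788, 396 and 304 CPM, highest in AD replicate 2, with means of 656 ± 186 CPM in AD and 350 ± 65.2 CPM in AD/KO (SD, n = 2 each). Its log2 fold change was −0.91 (SE 0.45, edgeR adjusted p = 0.680), and it was −0.52 without AD replicate 2 and −0.16 under the microglia scaling. The neutrophil markers were highest in the same library, at 4367 CPM summed, and their part in the level of Neat1 was not tested. Malat1 had 34, 19.2, 38.1 and 34.3 times the reads of Neat1, so that this ratio was lowest in AD replicate 2. Of 17 paraspeckle protein genes, 4 had a positive and 13 a negative difference under TMM scaling (median log2 fold change −0.12, 0 called), and all 17 were positive under the microglia scaling, as were 81.7% of all genes. Sfpq, which binds Neat1 in paraspeckles, was at 472, 375, 393 and 317 CPM, and Ewsr1 was at 363, 286, 301 and 251 CPM. Smarca4, a chromatin remodeller, was at 338 CPM in AD/KO replicate 2 and at most 242 CPM in the others. Sfpq and Ewsr1 were highest in AD replicate 1, where Neat1 was not.

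Kcnq1ot1 was the steadiest member, at 391, 409, 305 and 357 CPM, with means of 400 ± 12.9 CPM in AD and 331 ± 36.5 CPM in AD/KO (SD, n = 2 each). Its log2 fold change was −0.27 (SE 0.36, edgeR adjusted p = 0.779) and ±2 SE ran from −1.0 to 0.45, with the opposite sign under the microglia scaling (0.70). In the Kcnq1 domain, whose genes it is known to silence on the paternal chromosome, 9 of 11 genes were tested, 6 with a positive and 3 with a negative difference (median log2 fold change 0.11, 0 called). Cd81, a tetraspanin gene of the domain, was at 504, 472, 593 and 316 CPM. Nap1l4 was at 63.6, 62.8, 67.7 and 77.7 CPM, Tssc4 at 24.1, 22.1, 26.7 and 23.0 CPM, and Osbpl5 at 6.82, 16.3, 19.3 and 51.0 CPM. Osbpl5 thus ran in the same order of libraries as Meg3, and Kcnq1ot1 did not.

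Pvt1 was at 55.8, 36.3, 27.6 and 24.4 CPM, with means of 46.1 ± 13.8 CPM in AD and 26.0 ± 2.23 CPM in AD/KO (SD, n = 2 each). Its log2 fold change was −0.82 (SE 0.33, edgeR adjusted p = 0.680) under TMM scaling and 0.099 under the microglia scaling. Of its neighbours 3 were tested, all with a negative difference under TMM scaling (median log2 fold change −0.71, 0 called), and 1 with a positive one under the microglia scaling. Myc, the transcription factor gene next to it, was at 39.4, 25.5, 26.9 and 9.17 CPM, Cyrib at 757, 476, 518 and 235 CPM, and Asap1 at 230, 185, 195 and 142 CPM. Like Pvt1, all 3 were highest in AD replicate 1 and lowest in AD/KO replicate 2.

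The variable members ran with the neuron and the astrocyte markers across the libraries. The mean log2 CPM of the neuron list was 4.61, 6.21, 6.04 and 7.61, and that of the homeostatic microglia list was 10.38, 9.83, 10.41 and 8.50. All 10 neuron markers had a positive log2 fold change and 9 of the 10 microglia markers a negative one, with none called. The level of Meg3 minus the neuron list was 3.32, 3.89, 4.57 and 4.36, a range of 1.25 against 4.04 for Meg3 alone. The ranges narrowed likewise for Rian (3.8 to 1.38), Mirg (3.86 to 1.32), Snhg11 (3.94 to 1.18) and Miat (4.85 to 1.87). For Miat the difference from the neuron list was −0.55, −0.09, 1.32 and 1.29, and both AD/KO libraries stayed above both AD libraries, 1.63 apart on average. Meg3 also stayed apart (0.86 on average), whereas Rian, Mirg and Snhg11 overlapped. Neat1, Kcnq1ot1 and Pvt1 stayed apart too, with both AD/KO libraries lower, and Malat1 overlapped. How many of all genes stay apart after this subtraction was not computed, so that these separations are a description only. Against the astrocyte list (6.59, 7.82, 7.85 and 9.13) the ranges narrowed nearly as far, to 1.49 for Meg3, 1.56 for Rian, 1.50 for Mirg, 1.51 for Snhg11 and 2.30 for Miat, so that the narrowing was not particular to neuron markers. Meg3, Mirg and Miat stayed apart against the astrocyte list, with both AD/KO libraries higher, and Rian and Snhg11 overlapped. The steady genes did not narrow. Malat1 minus the neuron list ranged over 3.77, from 9.52 in AD replicate 1 to 5.74 in AD/KO replicate 2. The part of neuronal or astrocyte RNA in the levels of the 5 variable genes was not tested.

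**Figure D4:**
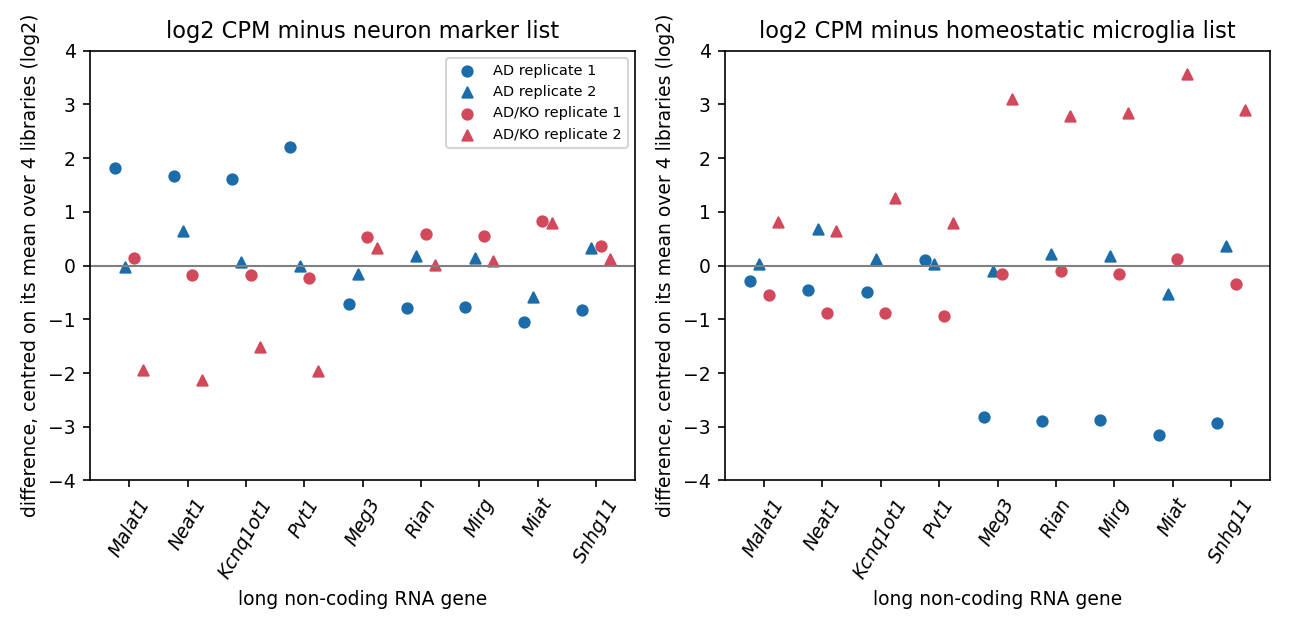
Log2 CPM of each long non-coding RNA minus the mean log2 CPM of the neuron markers (left) or of the homeostatic microglia markers (right) in the same library, centred on its mean over the 4 libraries, with AD in blue, AD/KO in red, replicate 1 as circles and replicate 2 as triangles. Against the neuron markers the 5 variable genes narrow to a range of at most 1.87, and against the microglia markers they widen to at least 5.68.

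AD replicate 2 and AD/KO replicate 1 had similar levels of the neuron list (6.21 and 6.04, mean log2 CPM). They can be read side by side, with 1 library per label and hence no test. Single neuron markers were not matched and differed in either direction. Rbfox3 was at 292 and 155 CPM, and Nrgn at 48.7 and 58.2 CPM. Miat was 2.36-fold higher in AD/KO replicate 1, and 0.746% of genes tested had a larger ratio. Meg3 was 1.43-fold higher (9.67% of genes had a larger ratio), Rian 1.19-fold and Mirg 1.18-fold higher, and Snhg11 was 1.10-fold lower. Malat1 was nearly equal (15101 and 15084 CPM). Neat1 was 1.99-fold lower in AD/KO replicate 1, and 5.98% of genes had a smaller ratio. These libraries also differed in their neutrophil markers (4367 and 445 CPM summed) and homeostatic microglia markers (11804 and 18101 CPM summed). Their oligodendrocyte markers summed to 2570 and 3882 CPM. Reads of Xist differed too (1391 and 15). The part of these differences was not tested.

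The genes with the profile most like each member, by root-mean-square distance of centred log2 CPM over the 4 libraries among 11298 genes with a mean of at least 10 CPM, differed between the sets. Closest to Meg3 were Cacna2d3, a calcium channel subunit (distance 0.025), Myt1l, a neuronal transcription factor (0.036), and Galnt18 (0.041). Rian and Mirg shared Gria2, a glutamate receptor subunit, Snhg14, a host of small nucleolar RNAs, and Hook1. Snhg11 was closest to Hook1 (0.033), Gm15521 and Snhg14, and Miat to Robo3, an axon guidance receptor (0.145), Ryr1 and Epha6. For Malat1 they were Ubr1 (0.0055), Rbmx and Timm21, for Kcnq1ot1 Nova1 (0.016), Gnptab and Cpeb2, for Neat1 Arhgap19 (0.058), Pstpip1 and Cpne3, and for Pvt1 Irf7 (0.025), an interferon response factor, Zfp738 and Gm2065. With 4 libraries such likeness is a description, and genes that follow any shared difference between libraries will score alike.

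Among 49 other named long non-coding RNAs, 43 were tested, 28 with a positive and 15 with a negative difference under TMM scaling (37 positive under the microglia scaling), with a median log2 fold change of 0.15 and none called. Over all 3807 genes tested that RefSeq annotates as long non-coding, the median was −0.40, with 1280 positive and 2527 negative under TMM scaling and 2486 positive under the microglia scaling. Snhg14, which lies in the imprinted Snrpn domain, was at 70.0, 501, 508 and 1163 CPM, in the same order of libraries as Meg3, Rian, Mirg and Miat. Norad, which sequesters Pumilio proteins, was at 161, 229, 215 and 483 CPM. The RNA components of the RNase MRP and RNase P enzymes, Rmrp (3184, 4454, 7006 and 3618 CPM) and Rpph1, were each highest in AD/KO replicate 1 and so did not follow that order.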

How the data were processed

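The authors deposited 1 table of raw read counts per gene symbol for each library. The submitters' processing notes list FastQC, HISAT2, SAMtools, featureCounts, Subread and DESeq2 1.30.0, and the build mm10. Versions of the others, the annotation, the strand setting and the handling of multi-mapping reads are not given in the sources used here. Broken lines (11 per table) left 4 genes without a count. All 49993 symbols matched RefSeq GRCm38.p6.

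Counts were tested with edgeR 4.0.16 in R 4.3.3 (filterByExpr at 10 counts and a total of at least 15, scaling by TMM, quasi-likelihood F-test, no covariate, Benjamini-Hochberg over all genes tested, threshold 0.05). The SE is the size of the log2 fold change divided by the square root of F. Marker lists and profiles use log2(CPM + 0.5). With 2 libraries per group an exact permutation test cannot go below p = 0.333 (two-sided). The biological coefficient of variation was 44.5%. Reads carry no molecular identifiers.

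The procedure was run on simulated data with 200 changed genes. Each gene was drawn independently there, without differences between libraries that many genes share. The run therefore cannot show how the procedure does on these libraries. The alternatives were DESeq2 1.42.0, DESeq2 size factors, no filter, a mean of at least 1 CPM, a replicate block, scaling to the microglia list and leaving out each library. The members, lists and tests were chosen with earlier results of these data known. All 9 members were named, with at most 4 genes per related list (highest mean CPM) and the 3 genes most like each member. One gene that this rule picks is not reported here.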

Additional observations from a re-analysis of the deposited data

How the results depend on the processing

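Of 90 values recomputed under alternatives, 77 kept their direction and their side of the threshold, and 3 reversed. Under scaling to the homeostatic microglia list the log2 fold changes of Malat1 (0.41), Kcnq1ot1 (0.70) and Pvt1 (0.099) became positive. Of all genes tested, 81.7% were positive under that scaling and 47.2% under TMM. The number of genes called by edgeR was 0, against 90 with DESeq2 as the test (40 higher, 50 lower) and a range of 0 to 524 when 1 library was left out (48 without AD replicate 1, 524 without AD replicate 2). Of the 9 members 0 were called, against 1 with DESeq2 (Miat) and 0 to 3 when 1 library was left out. A replicate block gave 4333 genes and 6 members: Meg3 (adjusted p = 0.00562), Rian (0.00958), Mirg (0.0115), Miat (0.00217) and Snhg11 (0.0165) positive, against 13.4% of genes, and Pvt1 (0.0256) negative, against 6.79%. The labels do not say that the numbers pair the libraries, and same-numbered libraries deviated together (correlation 0.718) with only 2 pairs. DESeq2 size factors, both filters and the microglia scaling called 0 genes.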
